A study of Coryphaena hippurus with 21 samples.

Results

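The miR-17-92 cluster families are microRNAs (miRNAs) that in vertebrates are cut from shared precursor transcripts of the miR-17-92 cluster and of its relatives, the miR-106a-363 and miR-106b-25 clusters. Members were all miRNA names in the 6 deposited count tables whose family is miR-17, miR-18, miR-19, miR-20, miR-25, miR-92, miR-93, miR-106 or miR-363, whatever the species prefix, letter or arm. This gave 10 of 329 names. They cover 8 of the 9 family numbers, since no name of miR-363 was listed. The names are sha-miR-92a, hsa-miR-25-5p, ola-miR-17, oan-miR-20a-5p, ola-miR-106a, dre-miR-93, ssa-miR-18a-5p, chi-miR-18b-5p, ola-miR-19b and ssa-miR-19c-4-5p. All 10 stood in all 6 tables and had counts above 0 in all 21 libraries. The prefixes name the species whose miRNA the reads were matched to (sha, Tasmanian devil; hsa, human; ola, medaka; oan, platypus; dre, zebrafish; ssa, Atlantic salmon; chi, goat), so a name stands for the family and not for a sequence known from mahi-mahi.

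The larvae were whole mahi-mahi (Coryphaena hippurus) at 48 h after fertilization (hpf), all of 1 age and kept in static seawater without renewal. The 7 groups had 3 libraries each. Control larvae developed in seawater without oil. Exposed larvae developed from shortly after fertilization in seawater that held Deepwater Horizon oil as a HEWAF, a fraction made by shearing oil into water at high energy. Slick oil, collected at the sea surface, was given at 0.5% (slick L), 1% (slick M) and 2% (slick H). Source oil, from the well, was given at 0.125% (source L), 0.25% (source M) and 0.5% (source H). The titles of the groups called source here carry the word mass in place of an oil. They were taken as source oil by inference, because the series text speaks of slick and source oil alone, and every source oil value below depends on that reading. RNA was isolated from pooled samples. Whether replicate libraries trace to different beakers is not stated, so p-values measure the spread between these libraries, which may be technical.

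The families fall into 4 groups by seed, the bases near the 5′ end that select target mRNAs. miR-17, miR-20, miR-93 and miR-106 share one seed, miR-25, miR-92 and miR-363 share another, and miR-18 and miR-19 have one each. In mammals the cluster is switched on by MYC and keeps progenitor cells dividing, and mice that lack miR-17-92 die around birth with small lungs and heart defects. Because the members of a cluster start as 1 transcript and are then cut, trimmed and degraded one by one, their levels can move together or apart.

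The libraries held 3157670 to 8736995 counts in the exposed groups. A principal component analysis of the 99 names without a 0 had 51.7% of the variance on its first axis, which set 7 libraries (all of source M, all of source H, and library L3 of source L, at 4.912 to 9.76) apart from the other 14 (at -5.121 to -2.01). The source M and source H results thus rest wholly on those 7 libraries, and source L is split between both sets. In a whole larva, fewer cells of a type and less of a miRNA per cell cannot be told apart. Levels of family names that mark cell types moved too. The endothelial miR-126 family lay at 6834.7 to 8476.0 CPM in control, 12537.7 to 31699.2 in slick L and 16246.9 to 25903.4 in slick H. It lay at only 2505.3 to 2789.9 in source M, with source H at 964.2 to 5417.5. Slick M (6547.4 to 28836.4) and source L (4230.6 to 19650.4) spanned the control range. The 4 muscle and heart families (miR-1, miR-133, miR-206, miR-499) spanned a summed 319001.9 to 473923.8 CPM in control against 249255.5 to 982885.8 CPM in source M, carried mostly by miR-206. The sum lay above control in source L (597094.3 to 660962.7) and source H (498811.1 to 685371.0), and below it in slick M (284937.4 to 300684.4). In slick L (349020.5 to 433109.4) and slick H (404742.1 to 436531.0) the sum overlapped control. Within that list miR-1 lay at 66096.4 to 83831.7 CPM in control and 7129.9 to 45471.8 CPM in source L. No source M library exceeded 4711.8 CPM of miR-1 and no source H library 5881.7 CPM. In each slick group miR-1 overlapped control. It stood at 0 in slick L6, M5 and H5 and in source M3, M5 and H3. Slick L6, M5 and H5 held the highest miR-206 level of their groups (427896.1, 295888.1 and 414323.4 CPM). So did source H3 (678198.9 CPM), but not source M3 or M5. Whether reads were given to miR-206 in place of miR-1 was not tested. miR-133 lay at 6438.4 to 11400.8 CPM in control, and below it in slick M (1327.1 to 5320.0) and source L (641.9 to 5597.5). It overlapped control in the other groups. miR-499 lay at 1721.9 to 2295.4 CPM in control, 647.7 to 776.2 in slick L, 813.3 to 1061.1 in source M, and at most 1493.6 in every exposed library. Of the neuronal pair, miR-9 spanned 360096.4 to 447069.6 CPM in control against 220791.3 to 263155.7 CPM in source H. It also lay below control in slick L (at most 327087.0), slick H (at most 347231.7) and source M (at most 342853.7). In slick M (257869.0 to 459306.8) and source L (310298.3 to 375693.5) it overlapped control. miR-124 spanned 355.9 to 452.4 CPM in control, 400.9 to 499.5 in source H and 712.4 to 1025.1 in source M. Levels of miR-124 lay below control in slick L (at most 321.1) and source L (at most 146.9). They overlapped control in slick M (289.9 to 529.8) and slick H (302.4 to 455.9). Of the red blood cell pair, miR-451 had no name in any table, and miR-144 lay at 449.9 to 507.8 CPM in control, at most 306.0 in every exposed library, and had no entry in source M. The part of these cell types in the results below was not tested.

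Levels above and below are scaled CPM, each library's counts over its TMM-scaled size from those 99 names, so that all groups share 1 scale. These levels are not shares of a library's counts. Together the members, with miR-19b and miR-19c taken once, made up 1.243 to 5.33% of a library's counts. Their summed level was 46248.1, 41183.5 and 41356.6 CPM in the 3 control libraries. It was 59924.4, 60165.8 and 62152.3 CPM in slick L and 58201.7, 59960.4 and 57162.0 CPM in slick H. In source M it was 25759.3, 26179.3 and 24891.0 CPM, and in source H 19750.2, 27149.1 and 30864.7 CPM. The sum thus lay above every control library in slick L and slick H and below every control library in source M and source H. In slick M it spanned 41309.1 to 44920.2 CPM, within the control range on this scale. In source L libraries L1 and L2 held 47189.7 and 49117.6 CPM and L3 29059.9 CPM. With total counts as library size, slick M held 29611.0, 45214.6 and 39946.8 CPM, against 27727.7 to 30134.8 CPM in control. Slick M libraries M5 and M6 then lay above every control. Slick L, slick H, source M and source H kept their places against control on that scale. These sums are a description, and most of the movement was in sha-miR-92a.

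**Figure D1:**
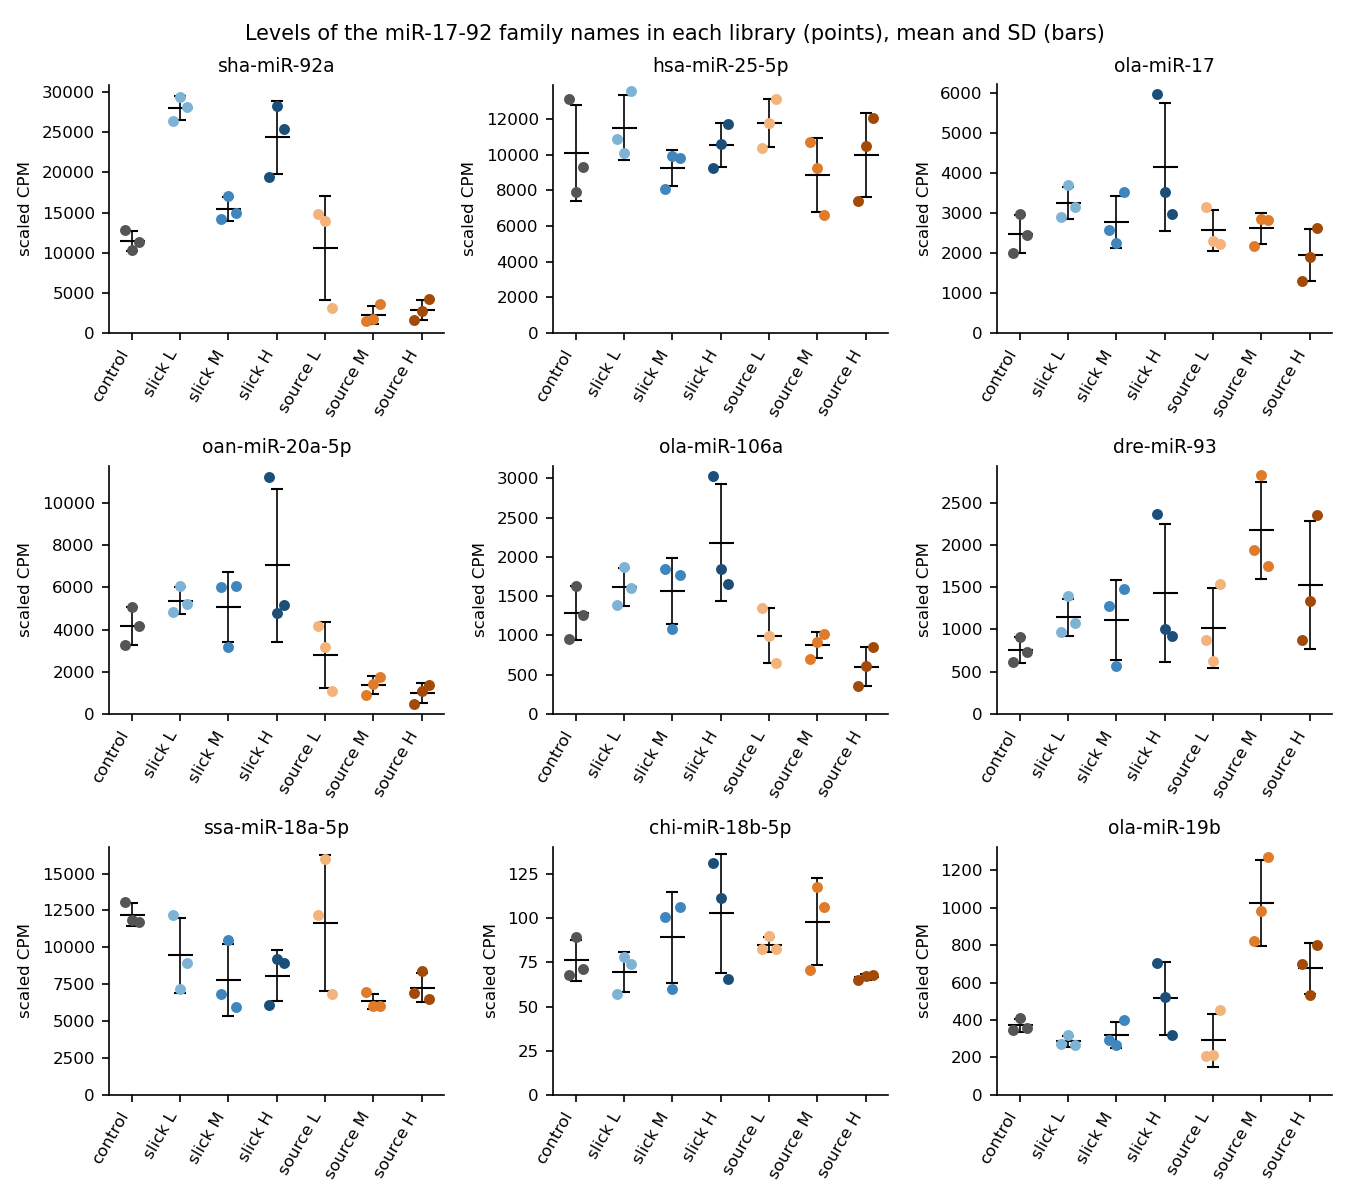
Level of each family name in each library (scaled CPM, linear axis from 0) by group, with points for the 3 libraries, their mean, and bars for the SD. sha-miR-92a spans the widest range, from 1502.3 CPM in a source M library to 29455.4 CPM in a slick L library, while hsa-miR-25-5p stays between 6591.8 and 13597.3 CPM in all 21.

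The miR-92 family had the widest range of any member. In mouse and human endothelium miR-92a restrains vessel growth, and it is the member of the cluster whose seed is shared with miR-25. sha-miR-92a, the single miR-92 name, stood at 12769.5, 10315.0 and 11334.0 CPM in control libraries C4, C5 and C6. In slick L it stood at 26414.2, 29455.4 and 28200.8 CPM, in slick M at 14252.5, 17104.4 and 14936.2 CPM, and in slick H at 19380.2, 28333.6 and 25400.2 CPM. All 9 slick libraries lay above all 3 controls, and on this scale the middle concentration lay below both others. In source L libraries L1 and L2 held 14783.4 and 13904.9 CPM and L3 held 3099.5 CPM. Source M held 1502.3, 1739.0 and 3564.7 CPM and source H 1640.4, 2737.8 and 4188.1 CPM, all below every control. From the lowest group mean (source M, 2268.7 ± 1128.6 CPM, SD, n = 3) to the highest (slick L, 28023.5 ± 1528.4 CPM) the level differed 12.35-fold. Along that order of means, control lay below slick M and slick M below slick H with no shared range, while source M and source H, source H and source L, source L and control, and slick H and slick L overlapped.

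Against control, sha-miR-92a rose in slick L by 1.42 ± 0.15 (log2 fold change ± SE; edgeR quasi-likelihood test, Benjamini-Hochberg adjusted p = 0.00641) and in slick H by 1.26 ± 0.20 (adjusted p = 0.0225). In slick M the difference was 0.52 ± 0.18 (adjusted p = 0.379). In source M it fell by 2.30 ± 0.43 on the log2 scale (adjusted p = 0.0196). In source H the difference was -1.81 ± 0.42 with an adjusted p of 0.0569 over all names that passed the count filter, and 0.00817 among the names counted in every library of that comparison. The slick L call held without each of the 6 libraries in turn (adjusted p 0.0141 to 0.0458) but not in 1 fit over all 21 libraries (0.0971). Of the 6 fits that left out a library, the slick H call held in 1, without H4, and it was also lost in 1 fit over all 21 libraries (0.0869). The source M call was lost without C4, C5, C6 or M3 and with total counts in place of TMM scaling (adjusted p = 0.103), at a log2 fold change of -2.38.

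hsa-miR-25-5p is named for the 5′ arm of miR-25, which in mammals is the less used arm and does not carry the seed shared with miR-92. Its level was 13133.5, 7914.5 and 9290.3 CPM in control, and its group means ran only from 8855.3 CPM in source M to 11783.0 CPM in source L, a 1.331-fold range. Its libraries overlapped those of control in all 6 exposed groups. The log2 differences from control lay between -0.17 ± 0.26 in source M (adjusted p = 0.743) and 0.33 ± 0.22 in slick L (adjusted p = 0.424).

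The 4 names of the miR-17 seed group differed from each other in the source oil groups. In mammals this seed acts on cell cycle brakes and on TGF-beta signalling. oan-miR-20a-5p, the most abundant of the 4 in control, stood at 3279.3, 5081.8 and 4179.2 CPM there. Source M held 914.4, 1417.6 and 1753.7 CPM and source H 483.3, 1071.6 and 1390.7 CPM, all below every control. Source L held 4157.5 and 3168.5 CPM in L1 and L2 and 1062.7 CPM in L3. The 3 slick groups overlapped control, with 4849.8, 6063.4 and 5223.3 CPM in slick L, 6033.8, 3156.9 and 6045.6 CPM in slick M, and 11252.5, 4777.0 and 5162.4 CPM in slick H. oan-miR-20a-5p fell in source M by 1.59 ± 0.35 on the log2 scale (adjusted p = 0.0315). In source H the difference was -1.91 ± 0.47 (adjusted p = 0.0569, and 0.011 among names counted in every library). The source M call was lost without C4, C5, C6 or M3 and with total counts (adjusted p = 0.142, log2 fold change -1.75).

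ola-miR-106a, which lies in the paralogous clusters, was lower in the source groups by a smaller margin. It stood at 947.1, 1633.1 and 1259.4 CPM in control, at 692.1, 911.5 and 1018.0 CPM in source M, and at 348.6, 603.0 and 853.3 CPM in source H. Source M overlapped control, and source H lay below it on this scale. The tests gave -0.53 ± 0.30 in source M (adjusted p = 0.255) and -0.90 ± 0.42 in source H (adjusted p = 0.219), neither past the threshold. Slick H held 3030.5, 1850.4 and 1656.3 CPM, all above control, with a log2 difference of 0.90 ± 0.38 (adjusted p = 0.23).

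ola-miR-17, which names the cluster, overlapped control in source M and source H, and its difference passed the test in neither. Its level was 2002.5, 2969.8 and 2441.0 CPM in control, with 2174.5, 2852.4 and 2817.2 CPM in source M, and 1305.1, 1902.4 and 2618.0 CPM in source H, with overlap in both. The differences were 0.11 ± 0.24 in source M (adjusted p = 0.822) and -0.15 ± 0.35 in source H (adjusted p = 0.88). With total counts they were -0.11 and -0.62, so that the sign in source M turned with the scaling. In slick H all 3 libraries (5976.3, 3520.8 and 2975.2 CPM) lay above control, by a log2 difference of 0.89 ± 0.37 that did not pass the test (adjusted p = 0.224).

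dre-miR-93, from the miR-106b-25 cluster, moved in source M opposite to miR-20a although both carry the same seed. It stood at 609.6, 915.3 and 728.7 CPM in control but at 1946.3, 2830.9 and 1750.9 CPM in source M, above every control. In source H it held 877.4, 1337.6 and 2363.0 CPM, which touched the control range on this scale, and in source L 879.5, 624.2 and 1541.8 CPM, the last in L3. dre-miR-93 rose in source M by 1.55 ± 0.27 (adjusted p = 0.0175), a call lost without C4, C5 or C6 and with total counts (adjusted p = 0.119, log2 fold change 1.29). In source H the difference was 1.23 ± 0.45 (adjusted p = 0.117, and 0.027 among names counted in every library). Slick L held 966.4, 1393.0 and 1081.9 CPM, all above control, by 0.73 ± 0.26 (adjusted p = 0.142, and 0.0313 among names counted in every library). Slick M held 1281.8, 571.7 and 1479.0 CPM and slick H 2373.2, 1007.7 and 919.6 CPM.

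Summed over the 4 names, the miR-17 seed group stood at 6838.5, 10600.1 and 8608.4 CPM in control. Source M held 5727.3, 8012.3 and 7339.8 CPM, which overlapped control, so the lower miR-20a and the higher miR-93 partly offset each other in the sum. Source H held 3014.5, 4914.6 and 7225.0 CPM, and slick H 22632.5, 11155.9 and 10713.5 CPM.

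ssa-miR-18a-5p had the highest mean level of all members in control (12214.3 ± 764.5 CPM, SD, n = 3). It stood at 13092.3, 11854.6 and 11696.1 CPM there and at 6946.4, 6049.2 and 6017.5 CPM in source M. It fell in source M by 0.92 ± 0.13 on the log2 scale (adjusted p = 0.0106), with every library below control. The call was lost without C4 or C6 and with total counts (adjusted p = 0.0764, log2 fold change -1.16). In source H it held 6921.7, 8390.9 and 6507.7 CPM, again all below control, with a difference of -0.57 ± 0.18 (adjusted p = 0.0828). Source L split once more, with 12173.0 and 16013.6 CPM in L1 and L2 and 6807.1 CPM in L3. Slick L held 12191.5, 7193.0 and 8964.1 CPM, slick M 6866.4, 10529.0 and 5954.0 CPM, and slick H 6097.4, 9220.2 and 8930.3 CPM, and in none of them did the test pass (adjusted p 0.323 to 0.695). All slick M and slick H libraries also lay below every control on this scale. chi-miR-18b-5p, the other miR-18 name, had the lowest counts of all members (135 to 800 per library). Its group means ran from 66.72 to 102.8 CPM and no test passed. The miR-18 total per library was therefore set by 18a, at 13160.3, 11943.9 and 11767.1 CPM in control against 7017.0, 6166.7 and 6123.7 CPM in source M. The same total held 12248.4, 7270.8 and 9038.1 CPM in slick L, 6967.3, 10588.8 and 6060.6 CPM in slick M, and 6228.6, 9331.9 and 8995.7 CPM in slick H. It held 12255.6, 16103.5 and 6889.8 CPM in source L and 6986.5, 8458.1 and 6575.8 CPM in source H, with source L3 inside the range that source M and source H span.

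The names of the miR-19 family, which has a seed of its own within the cluster, rose in source M. ssa-miR-19c-4-5p is named for a 5′ arm and ola-miR-19b for no arm. Which arm, and so which seed, these reads carry is not known here. The 2 names differed by at most 24 counts in a library (at most 0.865%), so they cannot be told apart from 1 set of reads, and 19b is given for both. ola-miR-19b stood at 346.3, 410.0 and 356.8 CPM in control, with 819.6, 980.2 and 1271.1 CPM in source M, and 696.6, 532.1 and 801.4 CPM in source H, with every source M and source H library above every control. It rose in source M by 1.495 ± 0.24 (adjusted p = 0.0138). In source H the difference was 1.07 ± 0.28 (adjusted p = 0.0569, and 0.00956 among names counted in every library). The source M call was lost without C4 or C6 and with total counts (adjusted p = 0.162, log2 fold change 1.32). Source L held 207.0 and 210.7 CPM in L1 and L2, below control, and 455.0 CPM in L3, above it. Slick L held 272.0, 319.3 and 265.0 CPM, slick M 290.6, 268.1 and 398.8 CPM, and slick H 705.1, 520.8 and 319.1 CPM, and none of these passed the test (adjusted p 0.342 to 0.988). The miR-19 total, which adds both names, held 691.6, 819.5 and 711.0 CPM in control against 1636.9, 1955.5 and 2543.0 CPM in source M. The source H total held 1389.4, 1061.5 and 1603.4 CPM and that of source L 413.8, 419.6 and 907.2 CPM. The slick totals spanned 529.6 to 637.6 CPM (L), 534.4 to 796.4 CPM (M) and 636.3 to 1410.4 CPM (H).

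**Figure D2:**
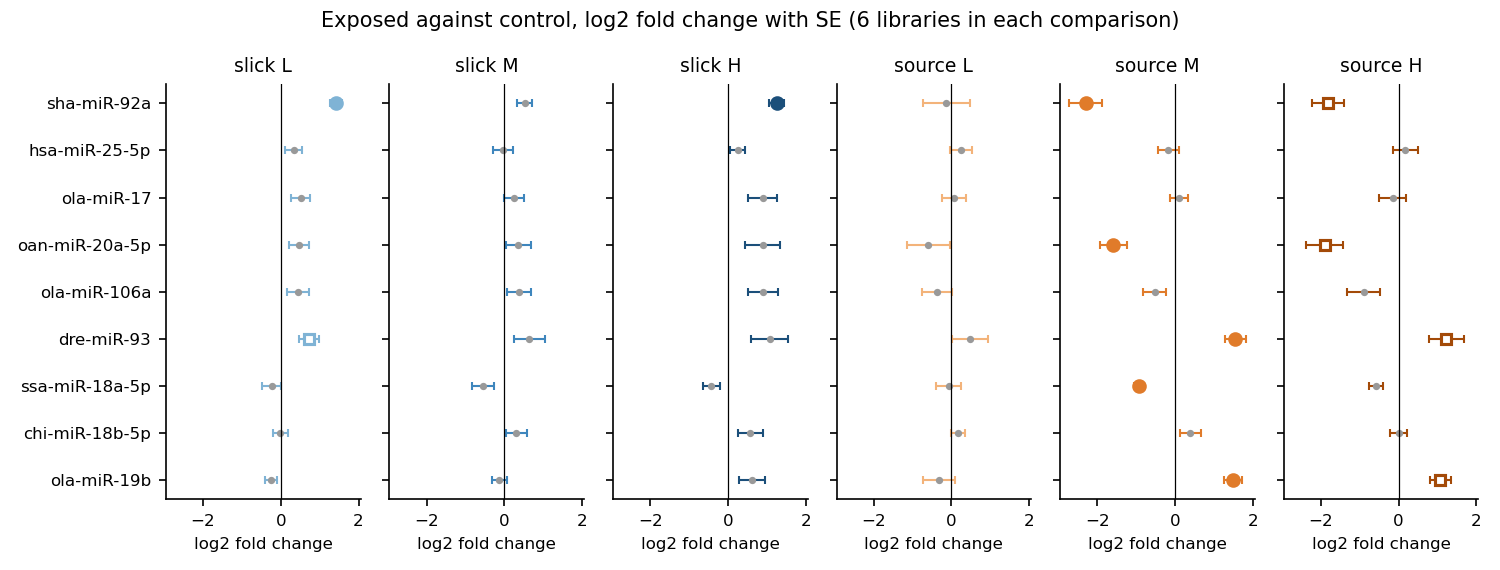
Log2 fold change against control (± SE) of each family name in the 6 exposed groups, from the edgeR fit over all names of each table. Filled circles passed an adjusted p of 0.05 over all names after the count filter, open squares passed it only among names counted in every library, and grey dots passed neither. In source M names lie on both sides of 0, from -2.30 (sha-miR-92a) to 1.55 (dre-miR-93).

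Counted over all names, the members were called at these rates. In slick L 1 of 10 was called, higher (2 among names counted in every library), where 14.5% of all tested names were called (38.6% in that smaller set). In slick H 1 of 10 was called, higher, against 10.1% of all names (27.4% in the smaller set, with 1 member). After the count filter both shares are near the background, and in the smaller set both are below it. In slick M 0 of 10 were called in either set or by DESeq2, where 1.26% of all names were called (4.46% in the smaller set, 8.81% by DESeq2). In source L 0 of 10 were called by edgeR or DESeq2, where 0.0% of all names were called by edgeR and 15.1% by DESeq2. At an unadjusted edgeR p under 0.05 slick M had 1 member, sha-miR-92a, and source L had 0. The share of all names at that unadjusted level was not counted, so these 2 counts have no background beside them. In source M 6 of 10 were called, 3 higher and 3 lower, against 24.0% of all names (56.5% in the smaller set, again with 6 members). In source H 0 of 10 were called against 9.38% of all names, and 5 in the smaller set, 3 higher and 2 lower, against 50.0%. The source M and source H shares in the smaller set are near the background. The 6 in source M and the 5 in source H each count miR-19b and miR-19c separately. With total counts as library size, source M had 0 members called where 4.67% of all names passed, and source H had 3, all lower, where 18.8% passed.

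The median log2 difference of the 10 members was 0.39 in slick L and 0.76 in slick H, beside 0.07 and 0.06 over all names tested. In source M it was -0.03 beside 0.32, and in source H -0.08 beside 0.17, with members ranging from -2.30 to 1.55 and from -1.91 to 1.23. Total-count scaling moved the median of all names by -0.24 in source L, -0.20 in source M and -0.32 in source H, and by at most 0.025 in the slick groups. Overlap was counted on the CPM of each comparison's own table and TMM factors, which can differ from the levels shared by all groups given above. In source H, for example, miR-93 lay above control and miR-106a overlapped it on the table's own scale, the reverse of the shared one. In slick L the exposed libraries of 4 members lay wholly above control, where 42.8% of names did not overlap in either direction. In slick M this was so for 1 member (18.9%), in slick H for 4 higher and 1 lower (36.1%), in source L for 0 (28.9%), and in source M (54.0%) and source H (50.0%) for 3 higher and 3 lower each.

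A sum over all names with the same family number does not depend on how reads were shared within a family. For miR-17, miR-20, miR-25, miR-92, miR-93 and miR-106, however, the total is the count of 1 name. The miR-19 total adds 2 nearly equal names. Tests of these families differ from the name tests mainly through the other features fitted and adjusted with them, so they are not a separate check. In slick L 1 of 8 families was called, miR-92 (1.35 ± 0.13, adjusted p = 0.00629), against 16.7% of all families. That call was lost without C6 or L5 and in 1 fit over all 21 libraries, where 2.86%, 0.0% and 0.0% of all families passed. In source M 5 of 8 were called, against 29.8% of all families. These were miR-19 (1.36 ± 0.25) and miR-93 (1.43 ± 0.30) higher, and miR-92 (-2.43 ± 0.42), miR-20 (-1.72 ± 0.36) and miR-18 (-1.05 ± 0.10) lower. The source M count fell to 1 without C5, C6 or M3 and with total counts, where 9.9%, 6.0%, 16.2% and 11.7% of all families passed. It fell to 3 without C4 (12.1% of all families) or in 1 fit over all 21 libraries (21.8%). In source H 4 of 8 were called, against 25.3% of all families. miR-19 was higher (0.92 ± 0.24, adjusted p = 0.0442), and miR-92 (-1.95 ± 0.40, 0.0263), miR-20 (-2.04 ± 0.47, 0.0371) and miR-18 (-0.70 ± 0.17, 0.0371) were lower. Left without any 1 of C4, C5, C6 or H2, source H had 0 of these families called, where 4.9%, 0.962%, 1.92% and 2.94% of all families passed. In slick H 0 of 8 were called against 6.06%, with 1 family in the set counted in every library (where 19.5% of all families passed) and 1 by DESeq2 (25.3% of all families), and in slick M and source L 0 of 8 against 0.99% and 0.0%.

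Each name was also set against ola-miR-17 of the same library, a ratio that needs no scaling between libraries. Since miR-93 and miR-106a lie in the related clusters, their ratios to miR-17 are not between products of 1 transcript. The 6 exposures share the same control libraries, and each group is given beside them. The share of all names whose ratio to ola-miR-17 lay outside the controls was not counted. The places of members against control below thus have no background beside them. The log2 ratio of oan-miR-20a-5p to ola-miR-17 was 0.712, 0.775 and 0.776 in control and 0.737, 0.714 and 0.73 in slick L. It was -1.25, -1.009 and -0.684 in source M and -1.433, -0.828 and -0.913 in source H. In source L it was 0.398, 0.463 and -1.07, so all 9 source libraries lay below all controls, also L1, whose miR-20a level lay within the control range. The same held for ola-miR-106a, at -1.08, -0.863 and -0.955 in control, and -1.23, -1.208 and -1.776 in source L, with group means of -1.589 in source M and -1.726 in source H. In the 9 slick libraries the miR-106a ratio ran from -1.07 to -0.48 and the groups overlapped control.

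The ratio of dre-miR-93 to ola-miR-17 was nearly constant in control, at -1.716, -1.698 and -1.744. It was -0.16, -0.011 and -0.686 in source M and -0.573, -0.508 and -0.148 in source H, all above control, and in slick L (-1.59, -1.408 and -1.541) it was above control by a mean of 0.206. ola-miR-19b followed in source M and source H, with means of -1.366 and -1.484, against -2.721 in control, while in slick L and slick M its ratio lay below every control, with means of -3.508 and -3.115. The ratio of sha-miR-92a to ola-miR-17 was 2.673, 1.796 and 2.215 in control, 3.183, 2.995 and 3.163 in slick L, -0.533, -0.714 and 0.339 in source M and 0.33, 0.525 and 0.678 in source H. Relative to miR-17, miR-92a thus stood above control in slick L and below it in source M and source H, and it overlapped control in slick M, slick H and source L. ssa-miR-18a-5p stood below control in slick H and source M, and overlapped it in the other groups. chi-miR-18b-5p stood below control in slick L (-5.675, -5.571 and -5.41, against -4.881, -5.055 and -5.104 in control) and overlapped it elsewhere. The ratio of hsa-miR-25-5p overlapped control in every exposed group.

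**Figure D3:**
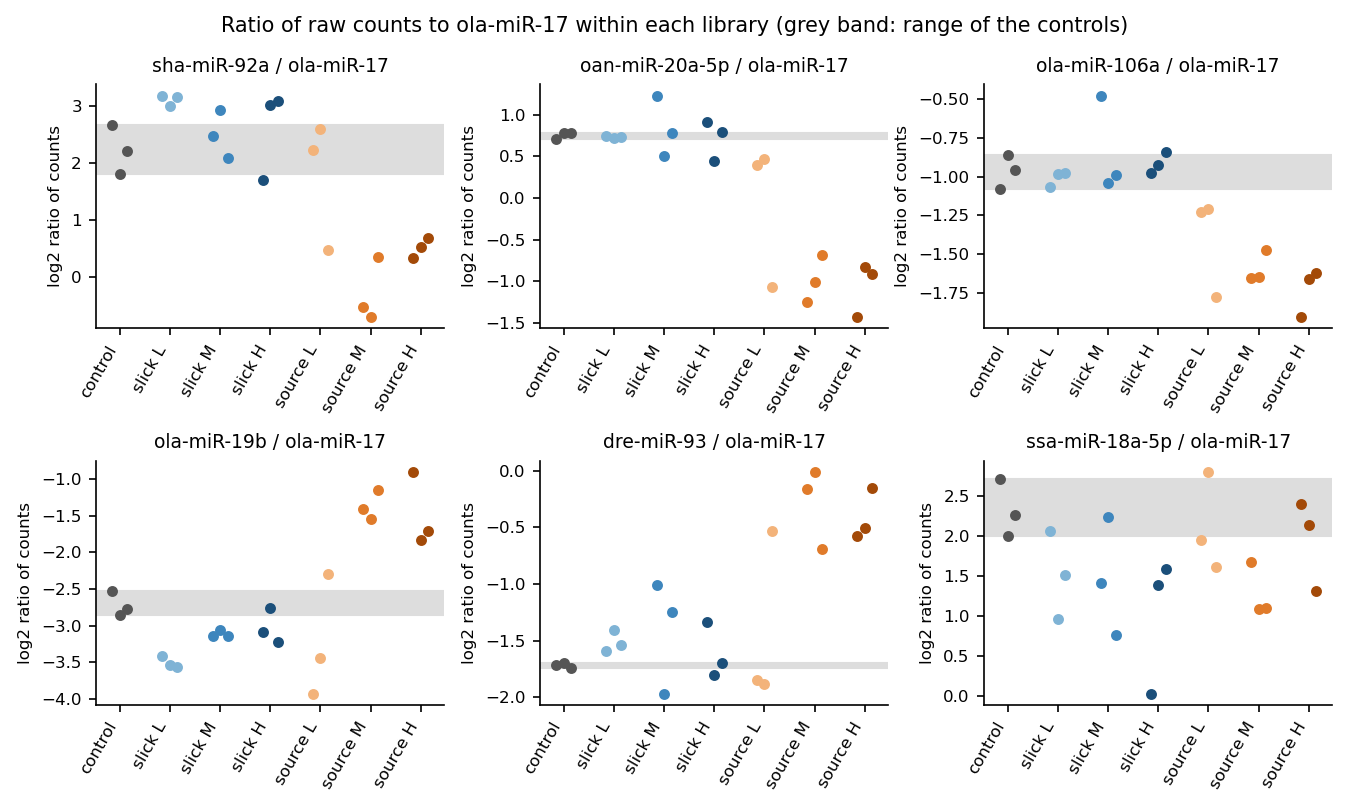
Log2 ratio of family names to ola-miR-17 in the same library, by group, with a point for each of the 3 libraries and a grey band for the range of the controls. The source M and source H points of miR-92a, miR-20a and miR-106a lie below all controls and those of miR-93 and miR-19b above, and library L3 of source L lies on the same side of the controls as they do in each case.

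Across nominal concentrations, a slope was fitted for each oil over its 9 exposed and the 3 control libraries. For source oil 2 of 10 members were called, both falling, against 16.5% of all names (3 members against 23.8% in the set counted in every library). oan-miR-20a-5p changed by -4.49 ± 1.06 per percent (adjusted p = 0.0197) and sha-miR-92a by -4.71 ± 1.43 (adjusted p = 0.0402). ola-miR-106a gave -2.36 ± 0.76 (adjusted p = 0.0533). Without library L3 of source L, 4 members were called where 24.2% of all names passed. Without C5, C6, H1, L1 or L2, 0 members were called. Of all names 0.806% passed without C5, 4.88% without H1, and 0.0% without C6, L1 or L2. For slick oil 0 of 10 were called by edgeR in either set, against 5.47% and 12.3% of all names, and 1 (ola-miR-106a) by DESeq2, against 13.3%. The slick slopes lay between -0.23 and 0.43 per percent. The nearest to the threshold was ola-miR-106a at 0.39 ± 0.14 (adjusted p = 0.128, DESeq2 0.0438). Per family number 0 of 8 passed for either oil by edgeR, where 5.83% of all families passed for source oil and 3.81% for slick oil. In the set counted in every library 1 family passed for source oil, against 11.1%, and by DESeq2 3, against 21.4%.

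Slick L and source H have the same nominal concentration, 0.5% of HEWAF, and were compared directly. The labels used here give no measured hydrocarbon content, so equal percent need not be equal exposure. sha-miR-92a was higher in slick L than in source H by 3.33 ± 0.48 on the log2 scale (adjusted p = 0.0197) and oan-miR-20a-5p by 2.51 ± 0.51 (adjusted p = 0.0487). These were 2 of 10 members, against 11.5% of all names. In the set counted in every library 5 passed, against 40.5%, adding ola-miR-106a (1.49, adjusted p = 0.0114) higher and ola-miR-19b and ssa-miR-19c-4-5p lower in slick L (-1.18 each, 0.0114). ola-miR-17 differed by 0.80 ± 0.39 (adjusted p = 0.204) and dre-miR-93 by -0.37 ± 0.51 (0.628). Per family number 1 of 8 passed (miR-92, 3.26 ± 0.49), against 4.81% of all families. The name calls fell to 0 without H2, L5 or L6 and rose to 4 without H3. Of all names 0.699% passed without H2, 0.0% without L5 or L6, and 27.5% without H3.

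At the highest concentration of each oil, which differ (2% slick, 0.5% source), 3 of 10 members were called, against 13.0% of all names (also 3 in the set counted in every library, against 38.7%). sha-miR-92a was higher in slick H by 3.08 ± 0.41 (adjusted p = 0.0183), oan-miR-20a-5p by 2.83 ± 0.55 (0.034) and ola-miR-106a by 1.83 ± 0.42 (0.0486). ola-miR-17 differed by 1.07 ± 0.39 (adjusted p = 0.123), dre-miR-93 by -0.12 ± 0.54 (0.858) and ola-miR-19b by -0.45 ± 0.38 (0.466). Per family number 2 of 8 passed, miR-92 and miR-20, against 11.9% of all families. The name calls fell to 1 without source H1 or slick H4, where 11.7% and 8.7% of all names passed. They fell to 0 without source H2, slick H5 or slick H6, where 0.0% of all names passed.

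Names of the miR-17 seed group varied together from library to library within each of the 2 sets that the first component separated. Over the 14 libraries of control, slick and source L1 and L2, Pearson's r of log2(CPM + 1) was 0.965 for oan-miR-20a-5p with ola-miR-106a, 0.895 with ola-miR-17 and 0.974 with dre-miR-93. Over the 7 others it was 0.972, 0.954 and 0.775. So miR-93 followed its seed group within either set, although across the sets it stood higher where miR-20a stood lower. ssa-miR-18a-5p varied the other way, with r of -0.855 and -0.529 to dre-miR-93 in the 14 and the 7. sha-miR-92a was weakly related to the seed group in the 14 (0.295 with oan-miR-20a-5p) and by 0.605 in the 7. The libraries of a set share the scaling, and groups of larvae are mixed in each set, so these values are descriptions.

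**Figure D4:**
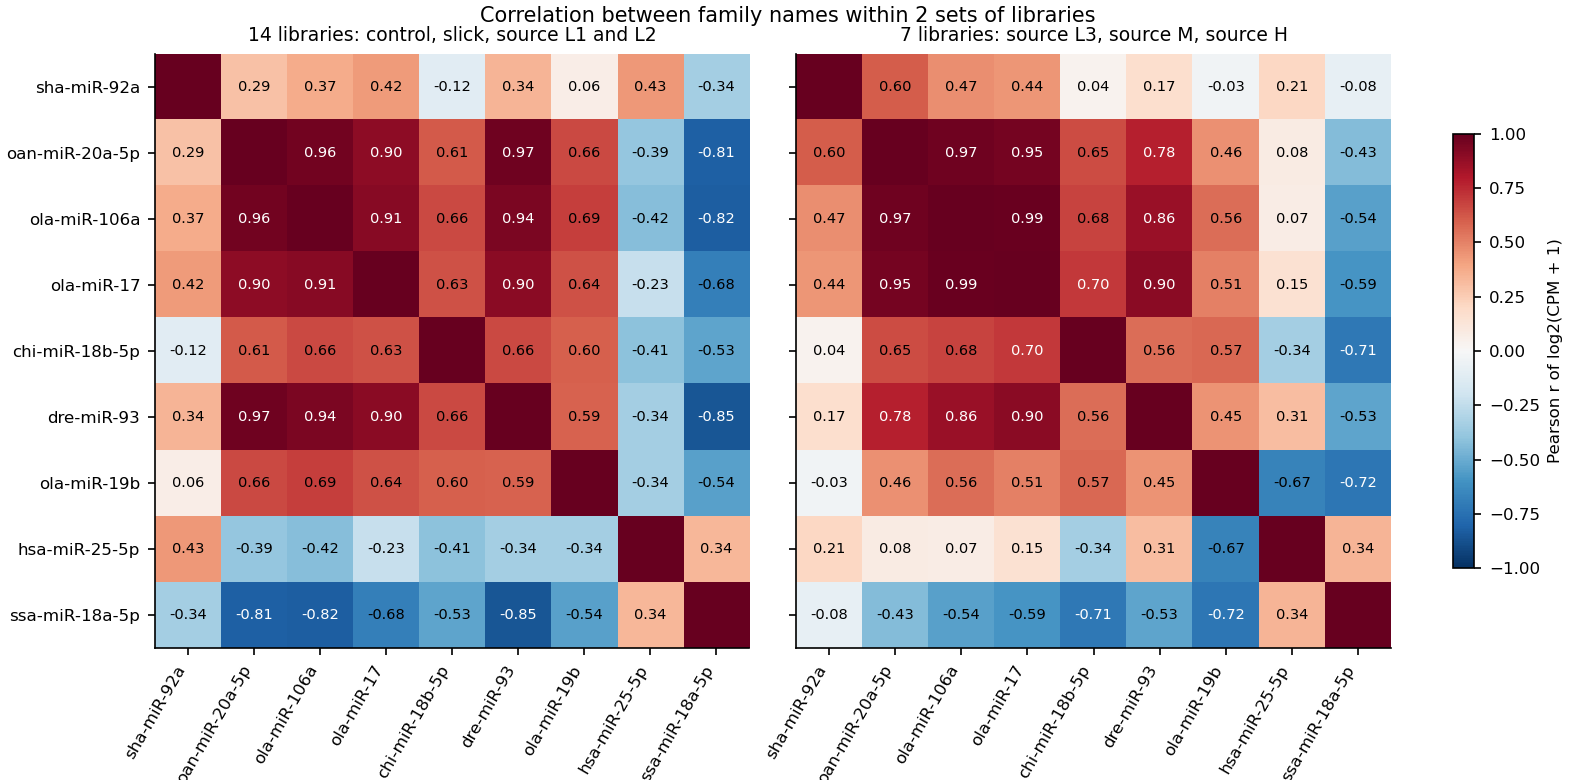
Pearson's r of log2(CPM + 1) between pairs of family names over 14 libraries (left) and over the 7 libraries that stand apart (right), with colour and number giving r. The block of miR-20a, miR-106a, miR-17 and miR-93 is 0.895 or higher in the left panel and 0.775 or higher in the right, and ssa-miR-18a-5p is below 0 against each of them.

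Among the 89 other names counted in all libraries, those most like a member were chosen by r over all 21 libraries, and r within the sets shows how much of the likeness is the split between them. ccr-miR-454b was nearest to oan-miR-20a-5p (0.971 over 21, 0.888 in the 14, 0.859 in the 7) and also to sha-miR-92a (0.936, 0.427 and 0.562). Its mean level was 901.2 ± 195.7 CPM in control, 1229.9 ± 225.5 CPM in slick H and 104.1 ± 44.35 CPM in source H (SD, n = 3). The second nearest were ola-let-7g for sha-miR-92a (0.928, but 0.008 in the 14) and ola-miR-135a for oan-miR-20a-5p (0.915, 0.247 in the 14). dre-miR-93 was nearest to ssa-miR-137-5p (0.851, 0.774 and 0.889) and aca-miR-34b-5p (0.808, 0.68 and 0.778). ssa-miR-137-5p was also nearest to ola-miR-19b and ssa-miR-19c-4-5p (0.764 each), followed by ola-miR-460-5p (0.749 and 0.748). ssa-miR-18a-5p was nearest to dre-miR-301c-5p (0.85, 0.844 and 0.687) and ssa-miR-301a-5p (0.774, 0.693 and 0.541).

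The authors' deposited table listed 9 or 10 of the members per exposure, with group means of scaled counts, a log2 fold change and a false discovery rate (FDR). By the authors' deposited table, members under an FDR of 0.05 numbered 2 in slick L (sha-miR-92a at 1.426, dre-miR-93 at 0.726), 1 in slick M (sha-miR-92a at 0.5, FDR 0.0371), 1 in slick H (sha-miR-92a at 1.217) and 0 in source L. It held 6 in source M, from -2.255 for sha-miR-92a to 1.482 for dre-miR-93. For source H the authors' deposited table held 7, which were sha-miR-92a (-1.918), oan-miR-20a-5p (-1.973), ola-miR-106a (-1.011, FDR 0.0303), ssa-miR-18a-5p (-0.69), dre-miR-93 (1.024, FDR 0.035), ola-miR-19b (0.915) and ssa-miR-19c-4-5p (0.916). Of these, slick M miR-92a, source H miR-106a and source H miR-18a passed in neither set of names tested here with edgeR. The share of all names under that FDR by the authors was not counted here, so these member counts have no background beside them. DESeq2, run here on the deposited counts, called 28.9% of all names in slick L, 8.81% in slick M and 24.1% in slick H. It called 15.1% in source L, 44.7% in source M and 38.8% in source H.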

How the data were processed

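The authors deposited 1 table per exposure of whole-number read counts per mature miRNA name, for 3 exposed and 3 control libraries each, and per the submitters' processing notes DESeq2 was used. Aligner, counter and build: not given in the sources used here. The authors' deposited result tables hold, per name, group means of normalized counts (signal) and their difference (a score), besides log2 fold changes and p-values, raw and adjusted. Control columns were the same in all tables (0 of 774 shared cells differed), 6 blank control cells were filled from another table, and a name on more than 1 line (17 extra lines) kept its highest count. Columns are numbered otherwise than the titles, so each was assigned to a group only, and libraries carry their column names.

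Counts were tested with edgeR 4.0.16 (R 4.3.3) by glmQLFit and glmQLFTest with TMM factors, after filterByExpr at a minimum count of 10 and total of 15, with Benjamini-Hochberg adjustment over all names or family numbers of a comparison, called under 0.05. The SE is the absolute log2 fold change over the root of F. The edgeR test was run on simulated counts modelled on names counted in every library of slick L and source M only. The other comparisons and settings were not simulated. Alternatives were DESeq2 1.42.0, total counts as library size, no filter, only names counted in every library, each library left out, 1 fit over 21 libraries and the replicate block. Members, lists and tests were chosen with earlier results of these data known. Values in every library are given for the 6 names of the rule's list, with miR-19b standing for miR-19c, and most family totals, and the 2 most correlated other names for each of the 6. SDs and SEs are of the spread between libraries. No sequence or arm was checked here.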

Additional observations from a re-analysis of the deposited data

Results flagged for a closer look

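Slick libraries and the source H libraries, read as source oil by inference, differed by a direct test for the names below. At 0.5% no such call held without source H2, slick L5 or slick L6. At the highest concentrations none held without source H2, slick H5 or slick H6. At the shared nominal 0.5%, sha-miR-92a was higher in slick L than in source H by 3.334 on the log2 scale and oan-miR-20a-5p by 2.506. At the highest concentrations, 2% slick and 0.5% source, the slick H minus source H difference was 3.075 for sha-miR-92a, 2.832 for oan-miR-20a-5p and 1.834 for ola-miR-106a. Each group had 3 libraries, too few to test for single libraries that stand apart. The 3 source H libraries belong to the 7 that the first principal component set apart, so oil and that set cannot be told apart in these comparisons.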

How the results depend on the processing

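No member name called after the count filter or among names counted in every library reversed direction under any alternative. The direction of family totals was not compared across the alternatives. Counts of members called are given as the reported value and the alternatives outside 1.5 times of it. With names counted in every library, slick L names went from 1 to 2, slick H families from 0 to 1, source H names from 0 to 5, source slope families from 0 to 1, slick L against source H names from 2 to 5 and families from 1 to 4. In that order 38.6%, 19.5%, 50.0%, 11.1%, 40.5% and 34.6% of all names or families passed. With DESeq2 the same member counts were 2, 1, 7, 3, 5 and 4, where 28.9%, 25.3%, 38.8%, 21.4%, 37.4% and 39.4% of all passed. DESeq2 gave 1 name for the slick slope (13.3% of all names) and 5 for the source slope (31.4%). It gave 4 families for slick H against source H (34.7% of all families). Total counts as library size gave 0 names (4.67% of all names) and 1 family (11.7% of all families) in source M. They gave 3 names in source H (18.8%) and 1 family in slick H (7.07%). The source slope had 1 name (9.92%) and 1 family (7.77%), and slick L against source H 4 names (23.0%) and 3 families (14.4%). One fit over all 21 libraries gave 0 names (5.61% of all names) and 0 families (0.0% of all families) in slick L. It gave 0 names in slick H, where a larger share of all names passed than in the reported fit. It gave 3 families in source M (21.8% of all families). In source H it gave 6 names (43.9% of all names) and 2 families (21.8% of all families). No filter gave 1 family for slick H against source H (6.31% of all families). The place of some levels against control also changed with total counts, such as the summed level in slick M.

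Leaving out 1 library gave 0 to 1 families in slick L, 0 to 1 names and 0 to 1 families in slick H, 0 to 6 names and 1 to 5 families in source M, 0 to 2 names and 0 to 2 families in source H, 0 to 4 names and 0 to 1 families for the source slope, 0 to 4 names and 0 to 3 families for slick L against source H, and 0 to 3 names and 0 to 1 families for slick H against source H. Shares over all names moved too, in source M from 6.71% without C6 to 31.1% without M5. In source H they ran from 0.0% without H2 to 20.9% without H3. In slick H they ran from 0.575% to 13.8%, and for the source slope from 0.0% to 24.2%. Slick L against source H had 0.0% to 27.5%, and slick H against source H 0.0% to 20.8%. Shares over all families were 0.0% to 14.7% (slick L), 0.0% to 9.0% (slick H), 6.0% to 36.4% (source M) and 0.962% to 23.3% (source H). For the source slope and the 2 direct comparisons, family shares were 0.0% to 13.3%, 0.0% to 18.9% and 0.0% to 4.95%. The cause of these changes was not tested.

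The replicate block could be fitted only in the slick tables, whose columns share numbers with the controls. Deviations of same-numbered libraries from their group means correlated at -0.467 to 0.48, with the highest value for C5 and slick L5. Whether the libraries are paired by number is thus not settled. With the replicate block slick L had 0 names (1.26% of all names) and 0 families (0.0% of all families) and slick H 0 names (0.0%). The adjusted p of sha-miR-92a was then 0.0861 in slick L and 0.23 in slick H. Over all names, calls in source M ran from 36 to 7 with total counts. With 3 libraries a group, a call that fails is not evidence of an equal level.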
